A study of Mus musculus with 98 samples.

Results

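Matrix metalloproteases (Mmp genes), ADAMTS proteases (Adamts), ADAMTS-like proteins (Adamtsl) and tissue inhibitors of metalloproteinases (Timp) were read in the stroma of the mouse thymus. The members were taken by gene symbol alone, as Mmp, Adamts, Adamtsl or Timp followed by a number. This gave 48 genes of the 22231 listed for the single-cell age series, of which 20 were MMPs, 19 ADAMTS proteases, 5 ADAMTS-like genes and 4 TIMPs. Among the 20760 genes listed for the newborn mutant data, 47 members were found, and Mmp21 was the member not listed there.

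MMPs are zinc-dependent endopeptidases that cleave collagens, proteoglycans, growth factor binding proteins and cell surface molecules, and most are secreted or membrane-anchored as proenzymes. ADAMTS proteases share a related catalytic domain joined to thrombospondin repeats that hold them to the matrix; they trim procollagens, aggrecan and versican, while ADAMTS-like proteins carry the repeats without a catalytic domain. TIMPs bind the active site of these proteases and block it, to an extent that differs between TIMPs and proteases, and TIMP3 stays bound to the matrix. In the thymus, fibroblasts build a collagen-rich capsule and a finer reticular network in the medulla, and both are remodelled as the organ grows from its embryonic rudiment to its full size.

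The study asked which cell subtypes make up the non-epithelial thymic stroma (NETS) and how they differ with age and in a mutant with a small thymus. For the age series, live Ter119-CD45-EpCAM- cells of wild-type (WT) C57BL/6 mice were captured at E12.5 and E13.5 (1 library each, E for embryonic day), at E16.5 and birth, written P0 (2 each), and at 4 weeks (2), and the authors' labels placed 36208 cells in 19 subtypes. For the newborn data, Ter119-CD45- cells, epithelium included, of P0 Tbx1+/-Crkl+/- mice (3 libraries) and WT littermates (3) were stored in RNA Protect before capture. The Tbx1 and Crkl alleles are germline losses, so every cell of a mutant carries them and no cell type is targeted. For bulk RNA-seq, CD45- populations of WT mice were sorted at P0 and 4 weeks: the NETS populations CD31+, gp38+CD26+, gp38+CD26- and Ly51+gp38-, and cortical and medullary thymic epithelial cells (cTEC and mTEC), with mTEChi and mTEClo at 4 weeks only. Each of these 14 groups held 6 libraries.

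The age series held 1997 to 6587 cells per library with median UMI counts per cell of 10005 to 14031, and the newborn data 1687 to 5661 cells. The newborn medians were 2391 to 2551 in the Tbx1+/-Crkl+/- libraries and 2577 to 4686 in the WT libraries. The bulk libraries held 5785352 to 15852166 counts on genes after 1 gp38+CD26+ library of 4 weeks with 25702 counts was left out, so that group has n = 5. At most 14 cell barcodes were shared by any pair of age series libraries. The subtype names were checked against marker lists. Fibroblast markers peaked in the capsular fibroblast subtype CapFb4, mural markers in vascular smooth muscle (VSM) and pericytes (Pc), endothelial markers in the arterial, venous/lymphatic and capillary subtypes (EnA, EnVL and EnC), and mesothelial and neural crest markers in the subtypes of those names (Mes and NCC). Summed CPM (counts of a gene per 1000000 UMIs or reads of the library, or of the subtype within the library) of immediate early and heat shock genes were 14461 to 16744 at P0, 9936 to 10032 at E16.5 and 9796 to 10928 at 4 weeks, and their part in the age results was not tested. In sorted or clustered cells alike, a lower summed level cannot tell fewer transcribing cells from less RNA per cell.

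Promoters are shown for 3 TIMPs, among them Timp3, on which the bulk comparisons turn, and for 4 MMPs of the cluster on chromosome 9, Mmp3 with its rise in fibroblasts and Mmp7, Mmp13 and Mmp20 with their counts in medullary epithelium. RefSeq promoters (GRCm38.p6) were matched for 33 members, with 36 promoters in all. For each, 250 bases upstream of the start were searched, and those outside the annotated gene are printed with motif matches in capitals, 210 bases for Timp3 and none for Timp2, whose window lies within the gene. The motifs were the AP-1 site TGANTCA, the TATA box TATAAA and the GC box GGGCGG, each read on both strands, so that a GC box on the opposite strand reads CCGCCC. Mmp13, Mmp3, Mmp20 and Mmp7 are drawn from the MMP cluster on chromosome 9 and hold both an AP-1 and a TATA match, and Timp1 holds a GC box and Timp4 none of the 3. Of the same cluster, Mmp8 and Mmp27 hold neither an AP-1 nor a TATA match, and Mmp12 an AP-1 but no TATA match. The 4 MMPs printed thus do not stand for the whole cluster. Timp2 and Timp3 hold a GC box each in the bases not printed.
Mmp13, collagenase 3 (chr9:7272264-7272513, plus strand): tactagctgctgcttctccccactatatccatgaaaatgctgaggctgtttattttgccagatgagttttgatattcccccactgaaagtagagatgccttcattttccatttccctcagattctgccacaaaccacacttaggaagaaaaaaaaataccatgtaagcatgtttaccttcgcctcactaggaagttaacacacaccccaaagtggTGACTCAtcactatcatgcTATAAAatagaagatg
Mmp3, stromelysin 1 (chr9:7445572-7445821, plus strand): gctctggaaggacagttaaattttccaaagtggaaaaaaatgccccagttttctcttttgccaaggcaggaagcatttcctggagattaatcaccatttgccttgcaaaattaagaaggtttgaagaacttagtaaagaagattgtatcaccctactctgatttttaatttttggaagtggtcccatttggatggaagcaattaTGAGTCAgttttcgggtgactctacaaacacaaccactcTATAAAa
Mmp20, enamelysin (chr9:7627981-7628230, plus strand): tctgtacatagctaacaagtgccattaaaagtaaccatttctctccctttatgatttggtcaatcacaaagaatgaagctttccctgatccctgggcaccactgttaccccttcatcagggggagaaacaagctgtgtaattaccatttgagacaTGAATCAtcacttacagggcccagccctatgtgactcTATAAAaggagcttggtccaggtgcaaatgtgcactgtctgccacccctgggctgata
Mmp7, matrilysin (chr9:7691840-7692089, plus strand): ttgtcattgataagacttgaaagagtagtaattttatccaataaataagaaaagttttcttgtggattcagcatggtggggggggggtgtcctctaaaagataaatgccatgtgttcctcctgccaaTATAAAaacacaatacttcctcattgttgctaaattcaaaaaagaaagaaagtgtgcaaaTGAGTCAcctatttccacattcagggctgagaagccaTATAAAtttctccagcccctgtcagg
Timp1 (chrX:20869916-20870165, plus strand): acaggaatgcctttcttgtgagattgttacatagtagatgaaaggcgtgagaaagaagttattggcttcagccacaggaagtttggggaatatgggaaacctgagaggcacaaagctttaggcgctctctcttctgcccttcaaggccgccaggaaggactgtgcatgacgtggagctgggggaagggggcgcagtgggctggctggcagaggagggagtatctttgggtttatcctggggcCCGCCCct
Timp3 (chr10:86300162-86300371, plus strand): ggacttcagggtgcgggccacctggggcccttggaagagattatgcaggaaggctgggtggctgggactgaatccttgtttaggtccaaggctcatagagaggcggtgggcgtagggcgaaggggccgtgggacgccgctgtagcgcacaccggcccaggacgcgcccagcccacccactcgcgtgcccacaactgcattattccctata
Timp4 (chr6:115252206-115252455, minus strand): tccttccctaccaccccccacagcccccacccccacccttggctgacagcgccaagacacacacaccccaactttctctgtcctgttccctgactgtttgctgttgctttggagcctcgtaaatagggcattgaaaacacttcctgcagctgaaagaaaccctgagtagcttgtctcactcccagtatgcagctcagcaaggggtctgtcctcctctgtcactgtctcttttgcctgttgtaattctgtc
AP-1 matches stood in 5 of the 36 member promoters, those of Mmp3, Mmp7, Mmp12, Mmp13 and Mmp20, against 6.75% of 32851 promoters of the same length. TATA matches stood in 7 of 36 against 12.4%, and GC box matches in 20 of 36 against 32.7%. These matches describe letters in the window and no binding was measured.

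Of the 48 members, 25 reached a mean level of 50 CPM in at least 1 subtype of the age series, over all ages or at 4 weeks. A further 13 had at least 200 UMIs below that level, 8 had fewer than 200 UMIs in all cells together, and Mmp12 and Mmp20 had none. Levels are CPM of the UMIs summed per subtype and library, given as mean ± SD over libraries of all ages (n = 8, or the libraries with at least 5 cells) unless an age is named, and UMIs are not scaled by gene length. Among the 38 members with 200 UMIs or more, the highest mean stood in a capsular fibroblast subtype for 21, a medullary fibroblast subtype (MedFb) for 5, NCC for 5, endothelium for 3, and mural cells and mesothelium for 2 each. NCC had 7 cells in each 4-week library, which counted in its mean like larger libraries. With the cells of all libraries pooled, capsular subtypes led 22 members and NCC 3. By the share of cells with a UMI, after thinning each cell to 2000 UMIs, they led 18 and 2. Because the subtypes were clustered on these same cells, differences between them are described and not tested.

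TIMPs divided the stroma. Timp2, which besides blocking MMPs helps MMP14 to activate proMMP2, had 182732 UMIs. It was highest in CapFb4 at 1694 ± 1547 CPM and next in Mes at 1120 ± 854 CPM, and at 4 weeks the 2 CapFb4 libraries (4101 ± 102 CPM) lay above the 2 Mes libraries (2225 ± 32.9 CPM). Timp3 (142663 UMIs) led in NCC at 801 ± 450 CPM with Pc next at 630 ± 366 CPM, an SD that includes the change with age, while at P0 Pc was at 746 ± 110 CPM and NCC at 625 ± 112.7 CPM. At 4 weeks VSM held the highest Timp3 mean, 1598 ± 269 CPM, within its spread of NCC at 1381 ± 616 CPM, a subtype with 7 cells per library at that age. Timp1, a secreted inhibitor, was highest in CapFb2a, where at 4 weeks it stood at 395 ± 0.197 CPM against 102 ± 49.98 CPM in CapFb2b, the next subtype. By the share of cells with a UMI after thinning, over all ages, Timp1 led in MedFb2b. Timp4 was highest in EnC at 48.97 ± 62.8 CPM and next in EnA at 32.9 CPM, and at 4 weeks EnC (142.7 ± 36.0 CPM) exceeded EnA (81.3 ± 17.2 CPM) by more than the spread.

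Gelatinases, which cleave denatured collagen and basement membrane collagen IV, peaked in different fibroblasts. Mmp2 (gelatinase A) was led by CapFb1a at 521 ± 389 CPM and CapFb3 at 508 ± 408 CPM over all ages. At P0 CapFb1a led at 555 ± 37.6 CPM, within the spread of CapFb1b at 527 ± 7.59 CPM, and at 4 weeks CapFb3 was at 1123 ± 22.5 CPM and CapFb1a at 1084 ± 33.4 CPM. Mmp9 (gelatinase B) was highest in the medullary fibroblasts MedFb1b at 84.2 ± 97.9 CPM and MedFb2b at 83.2 CPM, and at 4 weeks MedFb1b (229 ± 34.8 CPM) lay within the spread of MedFb1a (186.7 ± 55.4 CPM). Mmp3, a stromelysin that degrades proteoglycans and activates other proMMPs, reached 264 ± 160.8 CPM in CapFb1a and 253 ± 3.70 CPM in CapFb1c at 4 weeks. The share of cells with a UMI after thinning, over all ages, was highest in CapFb4 for Mmp2 and in MedFb1b for Mmp3. Mmp11, a stromelysin by name with weak activity on matrix, led in VSM (57.8 ± 22.5 CPM) and Pc (52.8 ± 26.02 CPM).

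Membrane-type MMPs were highest in different compartments. Mmp14, the membrane-anchored collagenase that activates proMMP2, was highest in MedFb1b (488 ± 131.2 CPM) and MedFb2b (460 ± 109 CPM). Mmp15 was highest in NCC (111 ± 50.9 CPM) and EnA (81.4 ± 41.1 CPM), Mmp16 in CapFb3 (64.0 ± 44.7 CPM), and the glycosylphosphatidylinositol-anchored Mmp17 in NCC, at 24.3 ± 1.25 CPM at P0 against 16.9 ± 4.27 CPM in VSM. By the share of cells with a UMI after thinning, over all ages, Mmp15 led in EnC and Mmp17 in VSM. Mmp23, a small cell-surface MMP, was highest in CapFb4 (298 ± 157 CPM) and Mes (276 ± 149.4 CPM).

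Aggrecan- and versican-cleaving ADAMTS genes were led by Adamts5, at 669 ± 363 CPM in CapFb4. The lead of Adamts1 changed with age, from EnA (414 ± 29.9 CPM) above VSM (344 ± 7.70 CPM) at P0 to NCC (316 ± 20.7 CPM), within the spread of CapFb3 (273 ± 134.6 CPM), at 4 weeks. NCC had 7 cells per library at that age. Adamts9 was highest in EnVL, at 182.1 ± 11.4 CPM at P0 with EnC next at 104 ± 8.80 CPM, and at 4 weeks at 100.01 ± 25.5 CPM, within the spread of EnC at 90.3 ± 1.63 CPM. Adamts2, the main procollagen N-proteinase, was highest in CapFb2a at 295 ± 186.9 CPM. At 4 weeks the order was CapFb2b (541 ± 12.9 CPM) above CapFb2a (497 ± 1.45 CPM), a gap larger than their spread. Adamts12, which cleaves cartilage matrix proteins, led in Pc at P0 (105 ± 9.41 CPM, with CapFb1b at 93.5 ± 4.42 CPM), and at 4 weeks CapFb3 (215 ± 44.1 CPM) and Pc (212 ± 8.77 CPM) were within the spread, and Adamts10, a fibrillin-binding protease, was highest in CapFb2a (85.2 ± 41.5 CPM). Of the ADAMTS-like genes, Adamtsl4, which binds fibrillin microfibrils, was at 65.3 ± 34.5 CPM in CapFb4 and 19.9 ± 15.2 CPM in the next subtype, CapFb2b.

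Levels of several members changed several-fold along the ages. In CapFb4, Timp2 was at 194 and 290 CPM in the E12.5 and E13.5 libraries, 1158 and 1136 CPM at E16.5, 1302 and 1270 CPM at P0 and 4174 and 4029 CPM at 4 weeks, so both 4-week libraries lay far above all earlier ones. Mmp3 in MedFb1b was at 0 CPM before E16.5, 1.25 and 1.30 at E16.5, 0.940 and 1.12 at P0 and 231 and 203 at 4 weeks. The gene was thus close to absent until birth in these fibroblasts, and its gain from P0 to 4 weeks was 7.63 ± 0.17 on the log2 scale (SE; adjusted p = 3.18e-13). Mmp9 in MedFb1b stood at 12.8, 6.25, 13.95 and 10.96 CPM in the 4 embryonic libraries, 123 and 48.96 at P0 and 253 and 204 at 4 weeks. Adamts18 in CapFb1c ran the other way, from 306 and 78.1 CPM in the first 2 ages to at most 0.716 in the 6 later libraries. Adamts17 in CapFb4 fell likewise from 224 and 35.2 CPM to at most 1.81. Both early ages have 1 library each, and the E12.5 values come from 10 CapFb1c and 6 CapFb4 cells. Any difference between the ages was tested with edgeR's quasi-likelihood test and Benjamini-Hochberg (BH) adjustment. The E12.5 cells of CapFb1c and CapFb4 were fewer than the 20 a test needed, which leaves 1 library, E13.5, on the early side, and no p is given for these 2 falls. Over 526 pairs of a member and a subtype, 436 pairs passed, against 55.3% of pairs over all genes.

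From P0 to 4 weeks, Mmp2, Mmp3, Mmp19, Mmp23, Adamts2 and Adamts5 rose in 11 to 13 subtypes each, while Mmp14, Mmp16 and Adamts9 fell in 12 to 15. The comparison had 2 libraries per age and was fitted in the 17 subtypes with enough cells, NCC and Mes being too few. Of 526 pairs, 290 passed an adjusted p of 0.05, against a background of 27.6% of pairs over all genes. Those higher at 4 weeks made up 34.6% of the member pairs and those lower 20.5%, against 13.7% and 13.9% over all genes. The count by subtype was highest in MedFb1b, at 23 of 33 members, and lowest in EnC, at 6 of 25. With all genes the share in those subtypes was 46.8% and 20.4%. By role, gelatinases rose in 17 and fell in 4 of 29 pairs, stromelysins in 20 and 1 of 30, the other MMPs in 25 and 0 of 33, and the procollagen N-proteinases in 13 and 5 of 41. ADAMTS-like genes rose in 32 and fell in 2 of 66 pairs, membrane-type MMPs in 5 and 28 of 63, and TIMPs in 22 and 17 of 59. Proteoglycan-cleaving ADAMTS genes rose in 27 and fell in 36 pairs, and the other ADAMTS proteases in 21 and 15 of 98. The median log2 fold change over all member pairs was 0.25. Mmp8 and Mmp13, the members listed as collagenases, did not pass the filter on low counts.

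**Figure D1:**
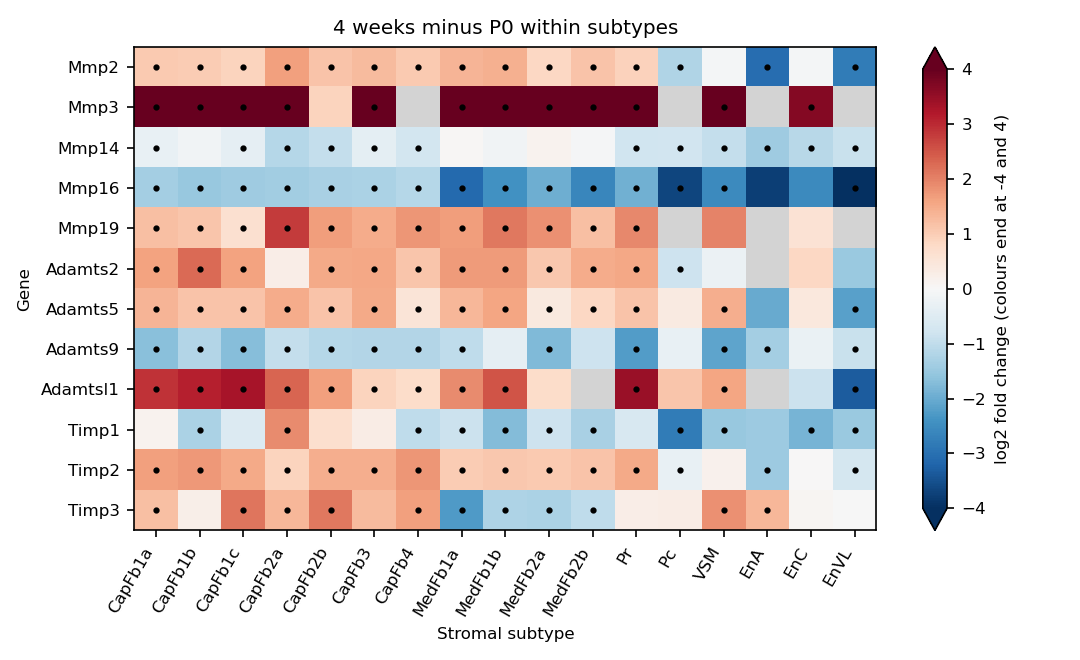
Heat map of log2 fold change from P0 to 4 weeks for 12 members across the 17 tested subtypes, with the colour scale ending at ±4, dots on pairs past an adjusted p of 0.05 and grey where a pair was not tested. Mmp16 falls across fibroblast columns, Mmp14 falls past the threshold in 6 of 7 capsular columns and in 0 of 4 medullary ones, and Mmp3 and Mmp19 rise in fibroblast columns. Timp3 rises past the threshold in 7 columns, CapFb4 and VSM among them, and falls past it in the 4 medullary ones.

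Of the inhibitors, Timp2 rose in 12 and fell in 3 of 17 subtypes. In CapFb4 the gain was 1.76 ± 0.06 on the log2 scale (SE; adjusted p = 4.44e-17). In EnA the 4-week libraries were at 145.6 and 110.2 CPM against 384 and 278 CPM at P0, a log2 fold change of -1.46 ± 0.25. Sorted CD31+ cells, given below, ran the other way for Timp2. Timp3 rose in 7 and fell in 4 subtypes. In VSM it went from 310 and 546 CPM to 1788 and 1408 CPM, a gain of 1.84 ± 0.23 log2. In CapFb4 Timp3 went from 166.9 and 211 CPM to 592 and 517 CPM (1.65 log2, adjusted p = 1.15e-11), and the libraries did not overlap in either subtype. Its 4 falls were the 4 medullary fibroblast subtypes, with MedFb1a going from 250 and 389 CPM to 82.5 and 61.6 CPM (-2.26 ± 0.19 log2) and MedFb1b from 258 and 447 CPM to 159 and 146.3 CPM (-1.25 ± 0.18 log2). Timp1 fell in 10 of 17 subtypes, among them MedFb1b, from 72.9 and 70.3 CPM to 22.3 and 21.1 CPM (-1.75 ± 0.11 log2). Its 1 rise was in CapFb2a, from 95.8 and 121.7 CPM to 395 CPM in both libraries (1.88 ± 0.16 log2). Timp4 rose in EnC (26.1 and 62.9 CPM to 117 and 168.1 CPM, 1.60 ± 0.35 log2, adjusted p = 0.013) and VSM, and was not called in the other 6 subtypes tested. Erythroid markers summed to 181 and 27245 CPM in EnC of P0 and 30642 and 40390 CPM at 4 weeks, and thymocyte markers to 26.4 and 35.2 and then 84.1 and 137.1 CPM. Over whole libraries the erythroid sums were 620 and 1402 CPM at P0 and 3240 and 5253 CPM at 4 weeks, and the thymocyte sums 39.9 and 18.8 and then 97.0 and 51.1 CPM. The part of these cells in the age results was not tested.

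Among MMPs, Mmp2 rose in 12 and fell in 3 of 17 subtypes. In MedFb1b it went from 274 and 315 CPM to 781 and 836 CPM (1.42 ± 0.09 log2), and in CapFb3 from 523 and 494 CPM to 1139 and 1107 CPM (1.26 ± 0.11 log2). The falls were in EnA, EnVL and Pc. In EnVL Mmp2 went from 87.0 and 86.9 CPM to 10.3 and 15.7 CPM (-2.81 ± 0.30 log2). The summed CPM of the fibroblast markers Pdgfra, Col1a1, Dcn and Lum in EnVL was 353 to 1261 at P0 and 222 to 261 at 4 weeks, lower in both 4-week libraries. In EnA it was 81.8 to 2099 and 352 to 366 and in Pc 1048 to 1884 and 809 to 1069, with libraries that overlapped, against means of 9671 and 20880 in MedFb1b. Their part in the endothelial and pericyte results was not tested, and without P0 replicate 1 the Mmp2 fold change in EnA was -1.76 log2 in place of -3.04 and no longer passed. Mmp3 rose in 12 of 13 subtypes. In CapFb1c it went from 4.96 and 5.49 CPM to 255 and 250 CPM (5.56 ± 0.15 log2, adjusted p = 6.59e-13), and in EnC from 0.652 and 0.561 CPM to 6.23 and 10.4 CPM, a level far below that of fibroblasts and a call lost under DESeq2. Mmp9 rose in 5 and fell in 1 of 12 subtypes, with MedFb1b at 1.43 ± 0.25 log2 (adjusted p = 0.000332).

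Mmp14 fell in 12 of 17 subtypes and rose in 0. In CapFb2a it went from 574 and 589 CPM to 274 and 248 CPM (-1.14 ± 0.11 log2), whereas in MedFb1b the values, 627 and 620 CPM at P0 and 586 and 567 CPM at 4 weeks, lay close. Mmp16 fell in 15 of 17 subtypes, in MedFb1b from 59.5 and 54.9 CPM to 8.68 and 12.7 CPM (-2.42 ± 0.15 log2). Mmp15, by contrast, rose in 3 and fell in 1 of 16, the rises being EnA, EnC and EnVL, where it went from 63.1 and 51.7 CPM to 166.7 and 114.6 CPM (1.25 ± 0.20 log2). Mmp19, an MMP with basement membrane substrates, rose in 12 of 14 subtypes and fell in 0, in MedFb1b from 18.3 and 20.4 CPM to 86.03 and 87.7 CPM (2.12 ± 0.11 log2). Mmp23 rose in 11 of 17 and fell in 0.

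The ADAMTS genes moved in different directions. Adamts5 rose in 13 and fell in 1 of 17 subtypes, with MedFb1b going from 110.2 and 151.02 CPM to 419 and 388 CPM (1.58 ± 0.11 log2). Adamts9 fell in 13 and rose in 0, with VSM going from 47.9 and 49.2 CPM to 14.2 and 9.73 CPM (-2.09 ± 0.19 log2). Adamts1 fell in 9 of 17 and rose in 0, with Pc going from 274 and 239 CPM to 99.3 and 112.3 CPM (-1.47 ± 0.11 log2). These 3 genes encode proteases with overlapping proteoglycan substrates, and their libraries did not overlap between the ages in the subtypes given. Adamts2 rose in 11 and fell in 1 of 16 subtypes, with CapFb1b going from 62.3 and 56.4 CPM to 285 and 288 CPM (2.25 ± 0.08 log2). Adamtsl1 rose in 11 and fell in 1 of 15 subtypes, with CapFb1c going from 9.63 and 4.54 CPM to 70.7 and 67.1 CPM (3.30 ± 0.23 log2). Adamts10 rose in 11 of 17, Adamts15 in 10 of 14 and Adamts12 in 8 of 16, with 0, 0 and 1 falls.

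From E16.5 to P0 the calls were fewer and mostly rises. Of the same 526 pairs 159 passed, 129 higher and 30 lower at P0, against a background of 12.6%, or 6.63% higher and 5.99% lower, and 257 had an unadjusted p under 0.05 (26.7% of pairs over all genes). Mmp2 rose in 16 of 17 subtypes and fell in 0. In CapFb1b it went from 280 and 262 CPM to 532 and 521 CPM (0.89 ± 0.07 log2, adjusted p = 9.65e-06). Mmp9 rose in 8 of 12, from 1.29 and 0.818 CPM to 15.0 and 13.48 CPM in CapFb1b (3.67 ± 0.25 log2), and Adamts2 and Timp2 each rose in 12 subtypes. Adamts8, another proteoglycan-cleaving protease, rose in 10 of 16 and Adamts4 (aggrecanase 1) in 9 of 17. In MedFb2a Adamts4 went from 24.8 and 20.9 CPM to 70.4 and 61.7 CPM (1.37 ± 0.13 log2). Both then fell towards 4 weeks, Adamts4 in 5 of 17 subtypes and Adamts8 in 5 of 16 with 3 rises. Adamts5, which rose towards 4 weeks, fell in 8 of 17 subtypes between E16.5 and P0 and rose in 1. Adamts15 fell in 6 of 14 before rising. Mmp14 and Mmp23 rose in 7 subtypes each, and Adamts1 rose in 2 and fell in 5. The P0 libraries serve in both comparisons, so a chance deviation in them moves both changes in opposite directions. Whether the same subtypes turned was not counted. With 1 E16.5 library left out, 86 or 87 pairs passed in place of 159.

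The ratio of MMP plus ADAMTS UMIs to TIMP UMIs was lower in both 4-week libraries than in both P0 libraries in 14 of 19 subtypes, higher in 3 and overlapping in 2. The 14 were all 7 capsular fibroblast subtypes, Pc, VSM, NCC, Mes and the 3 endothelial subtypes, the 3 were MedFb1a, MedFb1b and MedFb2b, and the 2 were MedFb2a and Pr. In CapFb4 the ratio went from 1.66 ± 0.0848 at P0 to 0.711 ± 0.0202 at 4 weeks (mean ± SD of 2 libraries), while the TIMP sum went from 1566 ± 21.1 to 4696 ± 142 CPM. In VSM it went from 1.62 ± 0.475 to 0.415 ± 0.119 and in EnA from 1.25 ± 0.342 to 0.385 ± 0.127. In MedFb1a it went from 2.24 ± 0.255 to 3.45 ± 0.0539 and in MedFb1b from 2.19 ± 0.281 to 3.08 ± 0.108. In CapFb1a it went from 3.86 ± 0.282 to 2.51 ± 0.0373 and in MedFb2a from 1.68 ± 0.234 to 1.93 ± 0.131. The ratio counts transcripts and not active protein and does not weigh which TIMP blocks which protease. With 2 libraries per age it was not tested, and 2 libraries against 2 can separate by chance. All 19 subtypes come from the same P0 and 4-week libraries, so their directions are not independent. NCC had 7 cells in each 4-week library (46508 and 24222 UMIs) and Mes had 7 cells in P0 replicate 2, too few for the age tests.

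Bulk sorting gave a separate view, with 47 members tested among 20417 genes and 6 libraries per group except as stated. In the study gp38+CD26+ cells lie in the capsule, gp38+CD26- cells are enriched in the medulla, Ly51+gp38- cells are mural and CD31+ cells are endothelium. The study also found CapFb1 cells among the gp38+CD26- cells, so this sort is not medullary alone. Whether the mix of subtypes in a sort changed with age was not tested. Values are the lowest, median and highest CPM. The age difference with the smallest adjusted p was that of Timp3. In gp38+CD26+ cells it was 75.7, 308 and 343 CPM at P0 and 760, 805, 871, 974 and 975 CPM in the 5 libraries of 4 weeks (1.86 ± 0.21 log2, adjusted p = 1.86e-10). In gp38+CD26- cells it was 1509, 1925 and 3568 CPM at P0 and 208, 255 and 266 CPM at 4 weeks (-3.00 ± 0.21 log2, adjusted p = 3.75e-19). No library of one age reached the range of the other in either population. The order of the 2 populations therefore turned over, with gp38+CD26+ below gp38+CD26- at P0 (-2.94 ± 0.21 log2) and above it at 4 weeks (1.92 ± 0.21 log2). The difference between the age changes was 4.86 ± 0.30 log2 (adjusted p = 6.71e-22 by edgeR's quasi-likelihood test). The single-cell CapFb4 and medullary fibroblast values above run in the same directions, in other libraries. The single-cell Timp3 rise in VSM had no counterpart in sorted Ly51+gp38- cells, given below, where no age change of Timp3 was called. Timp3 (chromosome 10, 86300372 to 86349506, GRCm38) shares exonic bases with Syn3 on the opposite strand, and the strand setting of the counting is not given in the sources used here. The same holds for Timp4 with Syn2, Adamts9 with A730049H05Rik and Gm15737, Mmp7 with AV064505 and Mmp12 with Mmp1b, so the bulk values of these genes may include reads of the opposite strand. Each bulk group held 3 libraries whose label begins with TXCK and 3 with DFCK, and within these prefixes the difference of the age changes was 4.73 and 4.93 log2.

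Further members passed the age test in the gp38+ populations. With Timp3 included, for gp38+CD26+ cells 4 members rose and 2 fell, against 6.26% and 3.3% of all genes, and for gp38+CD26- cells 5 rose and 4 fell, against 8.63% and 4.82%. Timp2 in gp38+CD26+ cells went from 56.2, 85.1 and 124.7 CPM to 366, 527, 565, 641 and 705 CPM (2.82 ± 0.59 log2, adjusted p = 0.000517). The gp38+CD26- values for Timp2, 59.9, 80.7 and 108.2 CPM and then 153, 174 and 267 CPM, did not pass the test, though the ages did not overlap. Mmp3 in gp38+CD26- cells went from 0, 8.08 and 20.1 CPM to 487, 631 and 1039 CPM (6.36 ± 1.79 log2, adjusted p = 0.00994). Its age change in gp38+CD26+ cells was not called, nor was its difference between the 2 gp38+ populations at 4 weeks. Mmp9 in gp38+CD26- cells went from 36.8, 59.6 and 178.6 CPM to 343, 371 and 453 CPM (2.51 ± 0.66 log2, adjusted p = 0.00522). In gp38+CD26+ cells of 4 weeks it was 0, 0, 18.6, 19.4 and 52.6 CPM, below every gp38+CD26- library of that age (-4.37 ± 0.78 log2). The age changes of Mmp9 differed by -3.10 ± 0.94 log2 (adjusted p = 0.0482), a call that was lost with RLE size factors, with no filter, with the title number as a block, within each label prefix and without gp38+CD26+ replicate 1, 4, 5 or 6 of 4 weeks, where the difference ran from -4.54 to -2.16 log2. The leukocyte marker sum was at most 4.96 CPM in gp38+CD26- cells of 4 weeks. Adamts1 fell in gp38+CD26- cells from 336, 412 and 661 CPM to 43.4, 62.1 and 103.2 CPM (-2.55 ± 0.78 log2), and Adamts9 fell in both gp38+ populations. In all, 3 members had age changes that differed between the populations, Timp3, Mmp9 and Mmp15, against a background of 3.39%. Mmp15 was at means of at most 4.77 CPM there, and its call was lost within each label prefix and without gp38+CD26+ replicate 6 of 4 weeks. Markers of mesothelium, in which Timp2 was also high, and of erythroid cells moved with age too. The 4 mesothelial markers, all detected in each of these groups, summed to 0, 65.3 and 469 CPM at P0 and 666, 4528 and 6126 CPM at 4 weeks in gp38+CD26+ cells, with no overlap, and to 0, 38.9 and 292 CPM and 0, 2.49 and 47.5 CPM in gp38+CD26- cells. The 5 erythroid markers summed to at most 2.95 and 0.610 CPM in the gp38+CD26+ and gp38+CD26- libraries of P0 and to 1158 to 3044 and 27.4 to 3359 CPM at 4 weeks. In gp38+CD26+ cells mural markers went from 95.7 to 206 CPM at P0 to 12.9 to 77.2 CPM at 4 weeks and thymic epithelial markers from 0.692 to 25.9 to 37.5 to 115.9 CPM, each with no overlap, while in gp38+CD26- cells both sums overlapped between the ages. The mural sum of gp38+CD26- cells was higher, at 1362 to 1966 CPM at P0 and 877 to 2780 CPM at 4 weeks. The part of these cells in the Timp3, Timp2 and other age results was not tested. Immediate early and heat shock genes summed to medians of 11662 and 11069 CPM in the gp38+CD26+ and gp38+CD26- libraries of P0 and 1852 and 3409 CPM at 4 weeks, and their part in the age results was not tested.

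Adamts16 divided the gp38+ populations by presence. At 4 weeks it was 11.4, 17.4, 28.7, 38.7 and 39.9 CPM in gp38+CD26+ cells and 0 in all 6 gp38+CD26- libraries, at least 694-fold higher against a floor of 3 counts over the group. At P0 it was 0, 1.88 and 6.17 CPM against 0, at least 59.6-fold. At P0 2 members were higher in gp38+CD26+ cells and 3 lower (2.23% and 1.97% of all genes), and at 4 weeks 2 and 2 (3.13% and 2.89%). Adamtsl1 was also higher in gp38+CD26+ cells at P0, at 5.09, 12.001 and 19.5 CPM against 0, 0.109 and 1.54 CPM (4.99 ± 1.26 log2). Within each label prefix neither P0 call was kept, nor that of Adamts16 at 4 weeks, and the P0 call of Adamts16 was also lost under DESeq2 and with the title number as a block.

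**Figure D2:**
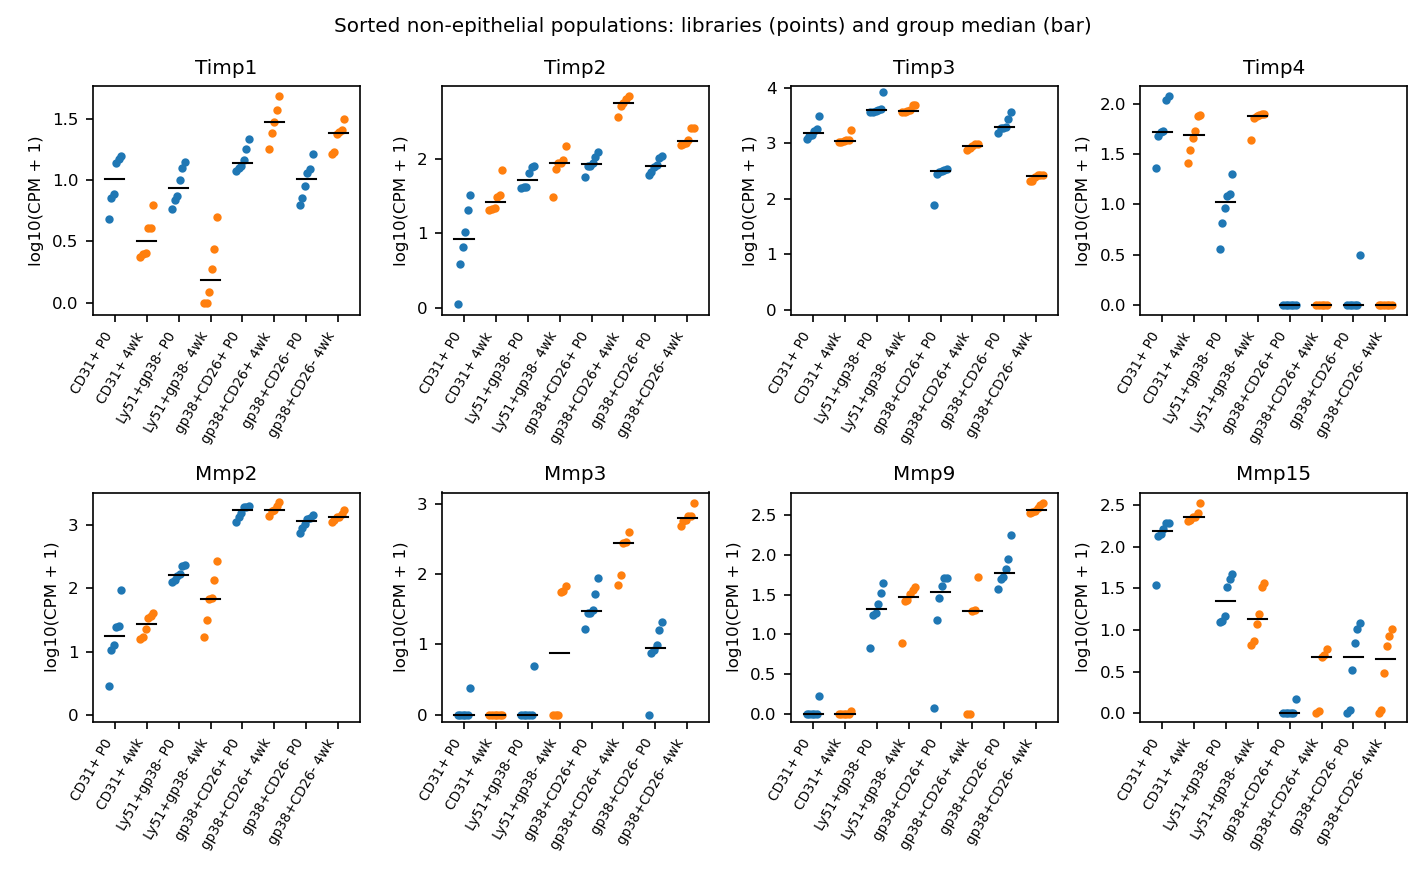
CPM per bulk library, on the axis log10(CPM + 1), for Timp1 to Timp4, Mmp2, Mmp3, Mmp9 and Mmp15 in the 4 NETS populations at P0 (blue) and 4 weeks (orange); points are libraries and bars the median of the log values. Timp3 points of gp38+CD26+ and gp38+CD26- cells change order between the ages. Mmp3 at 4 weeks is highest in gp38+CD26- cells, a difference from gp38+CD26+ cells that was not called.

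Mural Ly51+gp38- cells were set apart from gp38+ cells by Timp3 and Timp4. Timp4 did not set them apart from CD31+ cells, which were higher at P0 and overlapped them at 4 weeks. Timp3 was 3673, 3891 and 8466 CPM at P0 and 3609, 3815 and 4890 CPM at 4 weeks, above every gp38+ library of the same age, with log2 differences from the mean of the gp38+ populations of 2.43 ± 0.16 and 3.01 ± 0.17. Timp4 rose from 2.59, 9.70 and 19.2 CPM to 43.1, 75.4 and 79.01 CPM (3.04 ± 0.98 log2, adjusted p = 0.0337). At 4 weeks Timp4 had no count in any gp38+ library, which makes the difference at least 3355-fold. Mmp2 was lower than in gp38+ cells at both ages (-3.08 ± 0.61 and -4.09 ± 0.65 log2), as was Adamts5 (-2.95 ± 0.95 and -2.48 ± 0.93 log2). The Adamts5 call was lost within each label prefix at both ages, and at 4 weeks (adjusted p = 0.0441) also with RLE size factors, with no filter, under DESeq2, with all libraries kept, with the title number as a block and without gp38+CD26+ replicate 1, 3, 4 or 5. At P0 6 members were higher and 7 lower than in gp38+ cells, against 7.81% and 5.41% of all genes, and at 4 weeks 4 were higher and 12 lower, against 11.1% and 10.6%. With age 4 members rose and 5 fell in Ly51+gp38- cells (6.31% and 5.25% of all genes). Adamts16 went from 5.71, 10.2 and 22.6 CPM to 0, at least 263-fold lower, and Timp1 from 4.78, 7.75 and 12.9 CPM to 0, 0.561 and 4.03 CPM (-2.64 ± 0.60 log2). Adamtsl1 rose from 0, 2.01 and 6.52 CPM to 15.5, 36.8 and 45.9 CPM (3.84 ± 1.18 log2). Summed mural markers rose as well, from 30289 to 40658 CPM at P0 to 88122 to 113708 CPM at 4 weeks. Thymocyte markers were at 4.60 to 23.2 and then 87.9 to 277 CPM, erythroid markers at 0.0631 to 1.76 and then 3.47 to 536 CPM, and immediate early and heat shock genes at 5085 to 12323 and then 937 to 5328 CPM. The part of these genes in the differences was not tested.

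In CD31+ endothelium more members were lower than higher. At P0 5 members were higher and 19 lower than the mean of the other NETS populations (14.8% and 12.7% of all genes), and at 4 weeks 7 were higher and 22 lower (11.8% and 13.3%). Mmp15 was 33.3, 152 and 192.3 CPM at P0 and 205, 226 and 335 CPM at 4 weeks, higher by 5.92 ± 0.63 and 5.30 ± 0.61 log2 than the average of the log2 levels of the other populations. Timp4 was 21.8, 51.6 and 117 CPM at P0 and 24.8, 48.3 and 76.7 CPM at 4 weeks, against means over the other NETS populations of 3.36 and 23.5 CPM (adjusted p = 5.83e-11 and 2.89e-10). No fold change is given for Timp4, because the gp38+ libraries of 4 weeks had no count. The mean of 23.5 CPM averages these with Ly51+gp38- cells at a mean of 70.4 CPM, above the CD31+ mean of 51.1 CPM. At 4 weeks Timp4 was thus higher in CD31+ cells than in gp38+ cells but not than in Ly51+gp38- cells. Adamts18 was 0, 9.56 and 21.6 CPM at P0 and 3.70, 5.10 and 30.1 CPM at 4 weeks, when the other populations had no count. Mmp2 (-4.70 ± 0.66 and -4.68 ± 0.66 log2), Mmp9 and Adamts2 were lower at both ages. Mmp9 was at means of 0.110 and 0.0133 CPM against 44.1 and 143.7 CPM, and the CD31+ libraries of 4 weeks held 1 Mmp9 count in all. The mean of 143.7 CPM averages gp38+CD26- cells at 386 CPM, Ly51+gp38- cells at 27.1 CPM and gp38+CD26+ cells at 18.1 CPM. Mmp9 libraries of the other populations overlapped the CD31+ libraries at both ages. Adamts2 was at means of 0.0934 and 1.59 CPM against 328 and 896 CPM. Mmp3 had no count in CD31+ cells of 4 weeks, at least 8407-fold lower than the mean of the other populations. With age 5 members rose and 4 fell in CD31+ cells (4.72% and 5.77% of all genes). Timp2 rose from a mean of 11.6 to 32.6 CPM (1.62 ± 0.56 log2, adjusted p = 0.0489 by edgeR's quasi-likelihood test), with libraries that overlapped. This is opposite to its single-cell fall in EnA. Mmp2, which fell in EnA and EnVL single cells, was at means of 27.4 CPM at P0 and 26.7 CPM at 4 weeks and was not called with age. Mmp14 fell from 81.1, 221 and 340 CPM to 73.5, 98.2 and 184.9 CPM (-0.78 ± 0.26 log2, adjusted p = 0.0397), and its libraries overlapped. This call was lost with RLE size factors, with no filter, within the TXCK prefix (-0.31 log2), without CD31+ replicate 2, 3 or 4 of 4 weeks and without replicate 6 of P0. Mural markers summed to 25.9, 62.3 and 157.9 CPM in CD31+ libraries of P0 and 628, 1183 and 1815 CPM at 4 weeks with no overlap, erythroid markers to 7.57, 39.9 and 342 CPM and 298, 2927 and 7756 CPM, and their part in the CD31+ age results was not tested. The age calls of Mmp16, Mmp23, Adamts15, Adamts2 and Adamtsl5 rested on 1 library each, with mean levels of at most 1.62 CPM.

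In thymic epithelium Mmp2 was higher in cTEC, and Mmp7, Mmp12 and Mmp20 were found at low level in mTEC. Mmp2 was 111.9, 138.5 and 186 CPM in cTEC and 6.40, 14.2 and 14.8 CPM in mTEC at P0, and 267, 301 and 403 CPM against 0.0749, 10.9 and 17.9 CPM at 4 weeks (3.34 ± 0.65 and 4.97 ± 0.71 log2). Summed fibroblast markers in cTEC were 12.6 to 124.8 CPM at P0 and 340 to 1791 CPM at 4 weeks, against 365 to 483 and 220 to 536 CPM in mTEC, and their part in the Mmp2 result was not tested. Mmp7, which is made by many glandular epithelia, was 4.54, 7.24 and 7.96 CPM in mTEC at P0 with no count in cTEC, at least 147.7-fold higher. At 4 weeks Mmp7 was 17.1, 40.0 and 65.2 CPM in mTEC against 0, 0 and 1.03 CPM in cTEC (-7.04 ± 1.21 log2 for cTEC minus mTEC). Mmp12 (macrophage elastase) and Mmp20 (enamelysin, of developing teeth) had no UMI in the NETS age series but counts in mTEC. Mmp12 was 1.40, 7.96 and 18.1 CPM in mTEC at P0 and 0, 12.6 and 46.5 CPM at 4 weeks, with no count in cTEC. Mmp20 was 0.162, 3.29 and 8.00 CPM and 0, 9.78 and 22.3 CPM in mTEC, also with no count in cTEC. The leukocyte and neutrophil marker sum was 339 to 462 CPM in mTEC at P0 and 345 to 889 CPM at 4 weeks, against 3.54 to 11.5 and 67.6 to 252 CPM in cTEC, and its part in these results was not tested. At P0 3 members were higher and 14 lower in cTEC than in mTEC (5.96% and 26.2% of all genes), and at 4 weeks 4 and 15 (8.33% and 23.9%). The median log2 fold change over all genes was -0.44 and -0.33 in these contrasts.

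The mTEChi libraries differed from mTEClo in 11 members that were higher and 4 that were lower, against 14.4% and 4.66% of all genes, with a median over all genes of 0.26 log2. Mmp13 was 0.0797, 6.75 and 19.3 CPM in mTEChi with no count in mTEClo, at least 157-fold. Mmp25, a glycosylphosphatidylinositol-anchored MMP, was 8.33, 14.3 and 19.5 CPM with no count in mTEClo, at least 285-fold. Mmp8 (neutrophil collagenase) was 0, 5.64 and 13.6 CPM, at least 112.1-fold. The leukocyte and neutrophil marker sum was 639 to 1010 CPM in mTEChi and 49.9 to 332 CPM in mTEClo, and its part in these values was not tested. Mmp9 (means 64.8 and 274 CPM), Mmp2 (10.5 and 39.4 CPM) and Mmp14 (145 and 320 CPM) were lower in mTEChi, by -1.85 ± 0.65, -1.67 ± 0.62 and -0.90 ± 0.26 log2. With no filter, and with the title number as a block, Mmp14 was the 1 member still called lower, and no call among these 3 genes held in both label prefixes. With age, 5 members rose and 4 fell in cTEC (7.92% and 2.25% of all genes), and 0 rose and 3 fell in mTEC (2.47% and 1.44%). Adamts10 in mTEC went from 1.39, 3.75 and 9.58 CPM to 0 in all 6 libraries, at least 96.9-fold lower, while cTEC of 4 weeks held 4.87, 9.56 and 31.5 CPM. In the fractions of mTEC sorted at the same age Adamts10 had counts in 2 of 6 mTEClo libraries (11.5 and 13.2 CPM, mean 4.12) and 2 of 6 mTEChi libraries (0.409 and 3.94 CPM, mean 0.724), against a mean of 4.55 CPM in mTEC of P0. Adamts1 fell in cTEC from a mean of 38.3 to 5.36 CPM (-2.74 ± 0.80 log2). Between the same ages in cTEC, immediate early and heat shock genes summed to 6003 to 11791 CPM and then 720 to 2746 CPM, thymocyte markers to 23.2 to 44.9 and then 368 to 1726 CPM, erythroid markers to 0 to 1.13 and then 33.5 to 1405 CPM, mesothelial markers to 0 to 6.28 and then 25.7 to 2647 CPM and mural markers to 88.6 to 188.8 and then 242 to 806 CPM. In cTEC endothelial markers also went from 0 to 0.969 CPM at P0 to 8.86 to 76.4 CPM at 4 weeks. Fibroblast markers there went from 12.6 to 124.8 to 340 to 1791 CPM, and leukocyte and neutrophil markers from 3.54 to 11.5 to 67.6 to 252 CPM. Erythroid markers in mTEC summed to 6.41 to 46.8 CPM at P0 and 575 to 4644 CPM at 4 weeks. The part of these genes in the cTEC and mTEC age results was not tested.

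**Figure D3:**
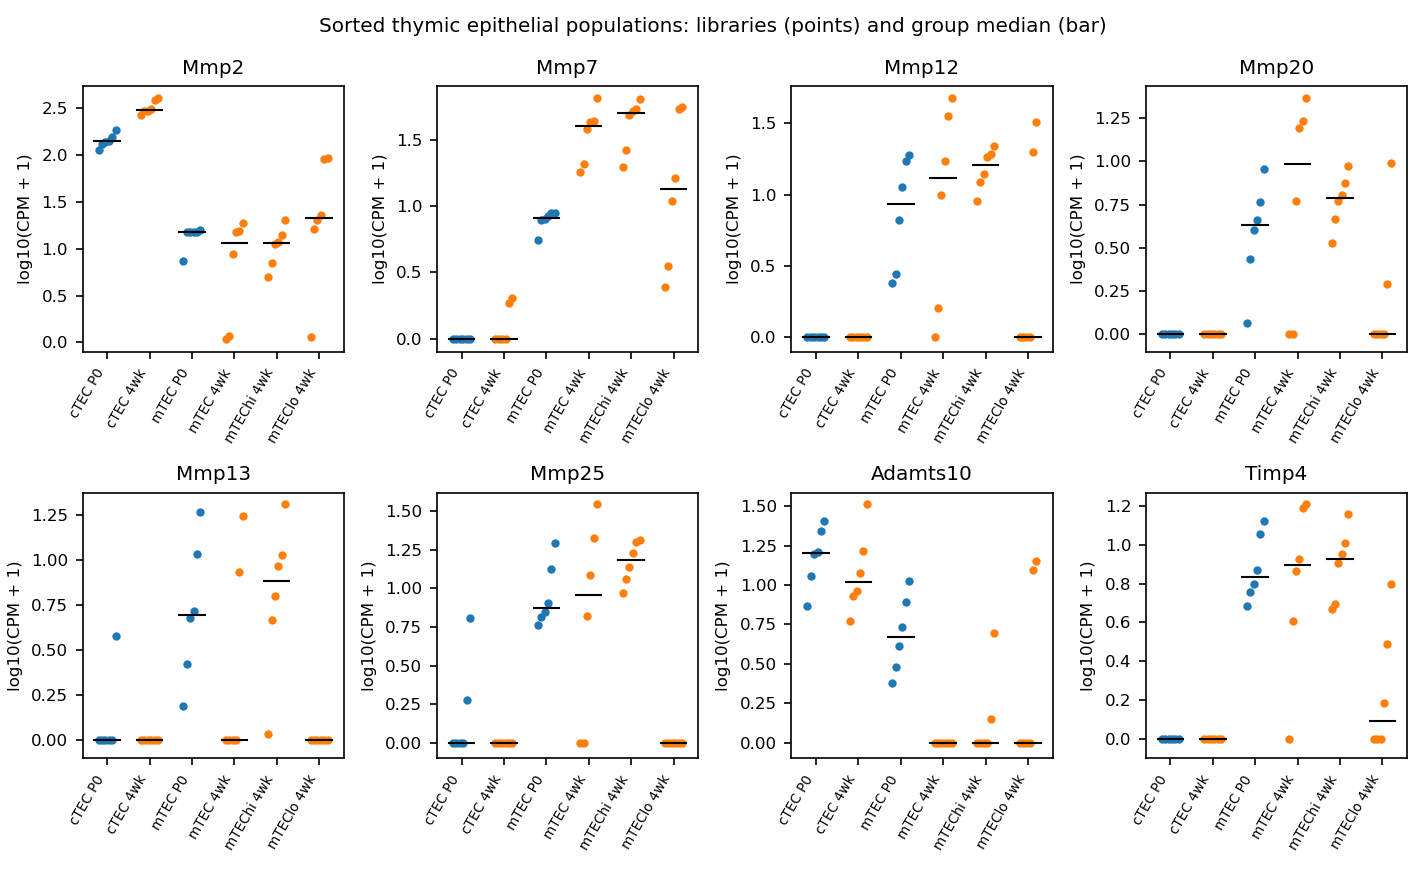
CPM per bulk library, on the axis log10(CPM + 1), for Mmp2, Mmp7, Mmp12, Mmp20, Mmp13, Mmp25, Adamts10 and Timp4 in cTEC and mTEC at P0 and 4 weeks and in mTEChi and mTEClo at 4 weeks; points are libraries and bars the median of the log values. Mmp2 is higher in cTEC, and Mmp7, Mmp12, Mmp20 and Timp4 in mTEC.

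In the newborn mutants the targeted genes were checked first. Tbx1 had 0, 0 and 8 UMIs in the Tbx1+/-Crkl+/- libraries and 13, 6 and 19 in WT, and Crkl was at 24.1, 23.6 and 26.9 CPM against 23.0, 25.1 and 18.4 CPM, so the libraries of both genes overlapped between the genotypes and neither checked the labels. No pair passed the test between genotypes, with 0 of 252 pairs of 35 members in 18 subtypes called by edgeR and 0 by DESeq2, against a background of 0.0481%, and 41 pairs had an unadjusted p under 0.05 (6.72% of pairs over all genes). The smallest unadjusted p was for Adamts12 in MedFb1b, at 172.1, 181 and 218 CPM in mutants and 111.6, 104 and 79.7 CPM in WT (1.03 ± 0.27 log2, adjusted p = 0.237), where the libraries did not overlap. Adamts9 in CapFb4 was at 82.2, 117 and 122.2 CPM against 38.4, 77.1 and 31.6 CPM (1.36 ± 0.41 log2, adjusted p = 0.190). Timp2 in CapFb4 was at 698, 567 and 428 CPM against 768, 908 and 1145 CPM (-0.74 ± 0.30 log2, adjusted p = 0.313). Every mutant library was shallower than every WT library, with median UMIs per cell of 2551, 2391 and 2506 against 2577, 3631 and 4686. CapFb4 held 73033, 179790 and 147312 UMIs in mutants and 182314, 181668 and 886399 in WT. The part of this depth in the genotype values was not tested. In simulated counts of newborn CapFb1b the fit recovered 36% of 2-fold changes, so differences of that size may have been missed.

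Other genes of the pathway were read from lists of activators and further inhibitors (plasminogen activators, serpins, furin-like convertases), ADAM proteases, other matrix proteases and procollagen processing factors, and substrates. From P0 to 4 weeks, 67 pairs of activators and inhibitors rose and 23 fell (35.1% and 12.04% of those tested), 48 ADAM pairs rose and 17 fell (41.0% and 14.5%), and 94 pairs of other matrix proteases rose and 11 fell (58.4% and 6.83%), against 13.7% and 13.9% of pairs over all genes. Of the substrate pairs 57 rose and 95 fell (23.9% and 39.9%), with a median log2 fold change of -0.43. Plau, urokinase, rose by 3.33 ± 0.16 log2 in MedFb1b and 3.47 ± 0.15 in MedFb2a. Adam12, a membrane-anchored metalloprotease, had a log2 fold change of -5.72 ± 0.30 in CapFb4, and Pcolce2, an enhancer of procollagen C-proteinase, one of 2.77 ± 0.11 there. Of the substrates, Vcan (versican) fell in CapFb1c (-2.20 log2), and Fbn2 (fibrillin 2) and Col1a1 fell in CapFb4 (-2.10 and -0.74 log2). Between the genotypes 0 pairs of these lists passed.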

How the data were processed

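Per the labels and the study's methods, the authors aligned single-cell reads with Cell Ranger 3.1.0 and deposited UMI counts per gene and cell, with cell labels; they kept cells with over 1000 genes and under 5% mitochondrial UMIs, removed doublets with DoubletFinder and discarded contaminant clusters. The authors deposited bulk counts of reads per gene made with STAR 2.5.3a and HTSeq (mm10). Libraries came from C57BL/6 mice digested with Liberase and DNase I. By the study's account, each embryonic library of the first 2 ages pooled thymi of 2 litters, later ages used 2 thymi each, and the newborn groups held 3 mice per genotype. How many animals made up a bulk library is not given in the sources used here, so bulk p-values measure the spread between these libraries.

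The deposited counts were used unchanged. Of 98 samples, 1 bulk library under 1000000 gene counts was left out. Bulk identifiers (37607 of 39179 with a symbol) held counts with no gene of 7.81 to 16.6% per library, which entered no library size. Single-cell counts were summed per subtype and library with at least 20 cells and tested with edgeR 4.0.16 (filterByExpr, TMM, quasi-likelihood test, R 4.3.3) in 1 fit per subtype over the ages or genotypes; bulk counts were fitted over all 14 groups. The label prefix of the bulk libraries entered as an alternative. P-values were BH adjusted over all genes of a contrast (for single cells, within each subtype), with a threshold of 0.05, and SE was the fold change divided by the root of the F statistic. Intervals, floors of 3 counts and CPM cover counting error only.

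Members were taken by symbol. The members, roles and lists were chosen with earlier results of these data known. Members named by level reached 50 CPM in a subtype over all ages or at 4 weeks. Members named in the age tests were the 12 called in the most subtypes of a contrast. Any others described there were chosen after their values were seen. Bulk members were those called with a mean of at least 1 CPM. Alternatives were DESeq2 1.42.0, RLE size factors, no filter, a minimum of 50 cells, replicate blocks, label prefixes and leaving out libraries. Scripts were tested on simulated counts with 2-fold and 4-fold changes put in. The MedFb1b age fit recovered 73% and 89% of them and the newborn CapFb1b fit 36% and 86%. The bulk fit of gp38+CD26+ against gp38+CD26- cells at 4 weeks recovered 2% and 23%. A member that was not called in the bulk or newborn data may therefore still have changed.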

Additional observations from a re-analysis of the deposited data

Results flagged for a closer look

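Libraries that stood apart from the rest of their group were looked for among the bulk values of the named members. Among 58 values printed in the report, 13 groups had such a library, while chance gives about 1 in 20. In CD31+ cells Timp2 reached 71.4 CPM in 1 library of 4 weeks with the next at 32.4, Timp3 reached 3139 CPM at P0 with the next at 1825 and 1744 CPM at 4 weeks with the next at 1138, and Mmp15 was as low as 33.3 CPM at P0 with the next at 134.8 and as high as 335 CPM at 4 weeks with the next at 253. In Ly51+gp38- cells Timp3 reached 8466 CPM at P0 with the next at 4051, Timp4 was 43.1 CPM in 1 library of 4 weeks with the next at 71.5, and Mmp3 was 3.89 CPM in 1 library of P0 and 0 in the others. In gp38+CD26+ cells of P0 Timp3 was 75.7 CPM in 1 library with the next at 276. In gp38+CD26- cells Mmp3 reached 1039 CPM at 4 weeks with the next at 676, and Mmp9 reached 178.6 CPM at P0 with the next at 88.8. In mTEC of P0 Mmp2 was 6.40 CPM in 1 library with the next at 13.9, and Mmp7 was 4.54 CPM with the next at 6.95.

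The age change differed between gp38+CD26+ and gp38+CD26- cells for 3 members, by 4.86 log2 for Timp3, 5.11 log2 for Mmp15 and -3.10 log2 for Mmp9. Of the 12 members named for the single-cell change from P0 to 4 weeks, 3 rose in at least 3 subtypes and fell in at least 3 others. Mmp2 rose in 12 and fell in 3 subtypes, Timp2 rose in 12 and fell in 3, and Timp3 rose in 7 and fell in 4. The difference between the subtypes was not tested there.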

How the results depend on the processing

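With 1 E16.5 library left out, the pairs called from E16.5 to P0 went from 159 to 86 or 87 (86 to 180 over all libraries left out). From P0 to 4 weeks 235 to 283 pairs were called (main 290), for any age 402 to 453 (main 436), with some pairs that the full data did not call, and between genotypes 0 to 2, with 3 when no filter was applied. DESeq2 called 212 pairs from P0 to 4 weeks, 380 for any age and 0 between genotypes. The capsular subtypes led 18 to 24 members. Leaving out 1 library gave 5 to 7 calls for the CD31+ age change (main 9; 5 without 4-week replicate 4), 8 for Ly51+gp38-, 4 to 6 for gp38+CD26+, 4 for gp38+CD26+ against gp38+CD26- at 4 weeks, 14 to 16 and 27 to 29 for Ly51+gp38- and CD31+ at 4 weeks, and 1 to 3 for the difference of age changes (1 without gp38+CD26+ replicate 6).

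Within the TXCK and DFCK libraries alone (3 per group) fewer calls were made: 3 and 1 for CD31+ age (main 9, of which TXCK shared 2), 2 and 3 for Ly51+gp38-, 2 and 2 for gp38+CD26+, 2 and 2 for gp38+CD26-, 3 and 0 for cTEC age, and 0 for mTEC age in DFCK. The same counts were 1 and 2 for gp38+CD26+ against gp38+CD26- at P0, 5 and 5 for Ly51+gp38- at P0, 11 and 7 for cTEC against mTEC at P0, 2 and 1 at 4 weeks for gp38+CD26+ against gp38+CD26-, 8 in TXCK for Ly51+gp38-, 18 and 17 for CD31+, 8 in DFCK for cTEC against mTEC, 3 and 4 for mTEChi against mTEClo, and 1 and 1 for the difference of age changes. With fewer libraries these fits have less power by construction. DESeq2 called 15 for CD31+ age, 15 for cTEC age and 7 for gp38+CD26+ against gp38+CD26- at 4 weeks, and the cause was not tested.

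The direction turned for 3 members. Adamts2 in CD31+ age was -4.06 log2 in TXCK, and with 1 library left out ran from -1.25 (without 4-week replicate 3) to 4.28. Mmp23 was -4.05 in TXCK, and ran from -3.08 (without 4-week replicate 2) to 4.52, and Mmp3 in Ly51+gp38- age was -6.87 in DFCK, where its 4-week libraries had no count, so these 3 rises rest on 1 library or 1 prefix. Of 383 named values, 60 no longer passed under DESeq2, 6 with RLE size factors and 15 with no filter, all in the same direction.

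Replicate numbers of the single-cell libraries share only a number: deviations of same-numbered libraries correlated at -0.148, 0.0736 and -0.306 in the age series and 0.270, -0.0503 and -0.643 between genotypes. With a replicate block 290, 170, 431 and 0 pairs were called, and 5 of 265 named values no longer passed. The title numbers of the bulk libraries lie 12 apart between populations of 1 age, which lines up libraries in 43 pairs of populations. Deviations of lined-up libraries correlated at -0.0689 to 0.0882, with 0 of 251 over 0.1. Of them 44.6% correlated best with their own number among the 6 libraries of the other population (5 for gp38+CD26+ of 4 weeks). That is above an even share, a hint from the data and not the design. Whether lined-up libraries came from the same animals is not given, and the main fits took libraries as independent of this number. With this number as a block within age, an alternative chosen after seeing the data, 3 members in place of 5 were called for gp38+CD26+ against gp38+CD26- at P0, the other population counts stayed within 1.5 times, and 9 named values no longer passed while 72 did. No paired analysis was possible for the bulk age changes because the numbers differ between ages. Median UMIs per cell in the newborn data were 2391 to 2551 in the mutant libraries and 2577 to 4686 in the WT libraries.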
